A study of Rattus norvegicus with 8 samples.

Results

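Immediate early genes are switched on within minutes of a stimulus, before any new protein is made, and most encode transcription factors. The 10 genes described here are Fos, Jun, Junb and Jund, whose proteins pair up as the AP-1 transcription factor, the transcription factors Egr1 and Atf3, the immediate early response genes Ier2 and Ier3, and Dusp1 and Dusp6, which encode phosphatases that switch MAP kinases off. They were taken by gene symbol from the platform annotation, which gave 18 probe sets of the 31042 on the array, and 15 of these 18 were bright enough to test. The 3 left out were 2 of the 3 probe sets of Jund and the only probe set of Atf3.

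MAP kinase cascades carry growth factor and stress signals to the nucleus, where they act on transcription factors at the promoters of immediate early genes. The same signals induce the dual specificity phosphatases, so that DUSP1, which acts on p38 and JNK as well as ERK, and DUSP6, which acts mainly on ERK, form negative feedback loops. In liver, immediate early genes are known for their rapid induction after partial hepatectomy and other injury, and Dusp1 is a known target of the glucocorticoid receptor (GR).

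The arrays measured mRNA in whole liver of male Sprague-Dawley rats in 4 groups of 2 arrays. Dex+GW3965 rats were dosed by gavage over 3 days with 50 mg/kg of the liver X receptor (LXR) agonist GW3965 and received dexamethasone, a synthetic glucocorticoid, at 1.5 mg/kg into the muscle on the last day. Dex rats received the gavage vehicle and dexamethasone, GW3965 rats received GW3965 and saline, and vehicle rats received the gavage vehicle and saline. All livers were taken 24 h after the injection, so the immediate early genes were measured long after their usual first wave, and no earlier time was analysed here. In each group the arrays, here a and b, bear a single liver number in the labels, whereas the methods describe 2 animals per treatment, so p-values may measure only the spread between arrays of 1 liver.

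All values are log2 signals, on which a difference of 1 is a 2-fold change, and levels are not compared between probe sets. Of the 31042 probe sets, 16253 exceeded the array-wide median on at least 2 arrays and were tested together with limma, and a call is a Benjamini-Hochberg adjusted p under 0.05 over all of them. Group means under 5.49, the mean of the array medians, were treated as background. Where 1 of 2 means was background, 5.49 replaced it and the difference is printed as a lower limit (at least). The median difference between the arrays of a group was 0.0698 to 0.089. The GR targets Fkbp5 and Tsc22d3 rose by 3.18 and 1.57 in Dex over vehicle livers and by 1.78 and 0.88 in Dex+GW3965 over vehicle livers. Of the LXR targets, Abca1 rose by 1.53 in GW3965 over vehicle livers, and Abcg1 was lower, at 6.80 in GW3965 against 7.21 in vehicle livers. The hepatocyte markers Alb, Apoa1, Ttr, Ahsg and Hnf4a, 5 of 6 listed, were measured, and their summed linear signal was 80890 to 85040 over the 8 arrays. Over vehicle livers 1 of the 5 rose and 3 fell in Dex+GW3965 livers, where 15.6% and 21.2% of all tested probe sets did. In Dex livers 1 rose and 2 fell (17.2% and 24.7% of all), and in GW3965 livers none rose and 1 fell (5.93% and 14.5%).

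The promoters of 6 of the 10 genes were found in the RefSeq promoter table (rat assembly GRCr8), each as 300 bases from 250 before to 50 after the annotated start. They were searched on both strands for TGACGTCA, the cyclic AMP response element to which CREB and ATF family proteins bind. It was present once in the windows of Jund, Ier2 and Dusp1, and in 612 of all 33469 windows (1.83%). These windows are shown because the 3 genes share this element, which played no part in their choice. The capitals mark it, 221, 66 and 124 bases before the start of Jund, Ier2 and Dusp1:
Jund promoter, chr16:18769722-18770021, minus strand: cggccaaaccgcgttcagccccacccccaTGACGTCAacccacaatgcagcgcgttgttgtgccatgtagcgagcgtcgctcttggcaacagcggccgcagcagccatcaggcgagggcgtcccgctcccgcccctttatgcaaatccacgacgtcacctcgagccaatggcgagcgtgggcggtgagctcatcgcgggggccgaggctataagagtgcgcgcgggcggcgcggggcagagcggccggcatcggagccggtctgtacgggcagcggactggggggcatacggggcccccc
Ier2 promoter, chr19:40399123-40399422, plus strand: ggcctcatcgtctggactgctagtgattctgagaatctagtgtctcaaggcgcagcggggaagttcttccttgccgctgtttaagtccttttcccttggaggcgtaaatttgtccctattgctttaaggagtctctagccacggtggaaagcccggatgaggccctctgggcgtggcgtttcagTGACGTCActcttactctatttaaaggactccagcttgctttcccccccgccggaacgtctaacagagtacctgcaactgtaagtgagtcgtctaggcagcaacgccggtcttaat
Dusp1 promoter, chr10:17184603-17184902, plus strand: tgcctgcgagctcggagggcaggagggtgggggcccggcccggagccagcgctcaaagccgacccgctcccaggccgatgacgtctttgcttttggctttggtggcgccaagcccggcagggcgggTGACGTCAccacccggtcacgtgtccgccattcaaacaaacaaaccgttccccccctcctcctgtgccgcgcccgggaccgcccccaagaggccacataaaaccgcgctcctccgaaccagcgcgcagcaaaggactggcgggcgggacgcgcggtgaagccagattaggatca
The window of Egr1 held 2 CArG boxes, the site of serum response factor, 105 and 83 bases before the start, and 1.64% of all windows held at least 1. The EGR site GCGNGGGCG occurred 3 times in the window of Jund and in none of the other 5, against 4.98% of all windows. The AP-1 site TGACTCA and the palindromic consensus of the glucocorticoid response element were in none of the 6 windows, against 4.63% and 0.0149% of all windows. None of these matches overlapped another, and a match is a string of letters, not a measured site.

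In livers given GW3965 alone, 1 probe set of Fos, the probe set of Egr1 and all 3 probe sets of Jun stood above every other group. In livers given both compounds Egr1 lay below its level in vehicle livers, and the Fos and Jun probe sets lay within 0.20 of theirs. Dexamethasone alone moved the phosphatases apart: Dusp6 was up to 6.09-fold lower and Dusp1 up to 2.37-fold higher than in vehicle livers. GW3965 together with dexamethasone left Dusp6 between its level in Dex livers and its level in vehicle livers.

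**Figure D1:**
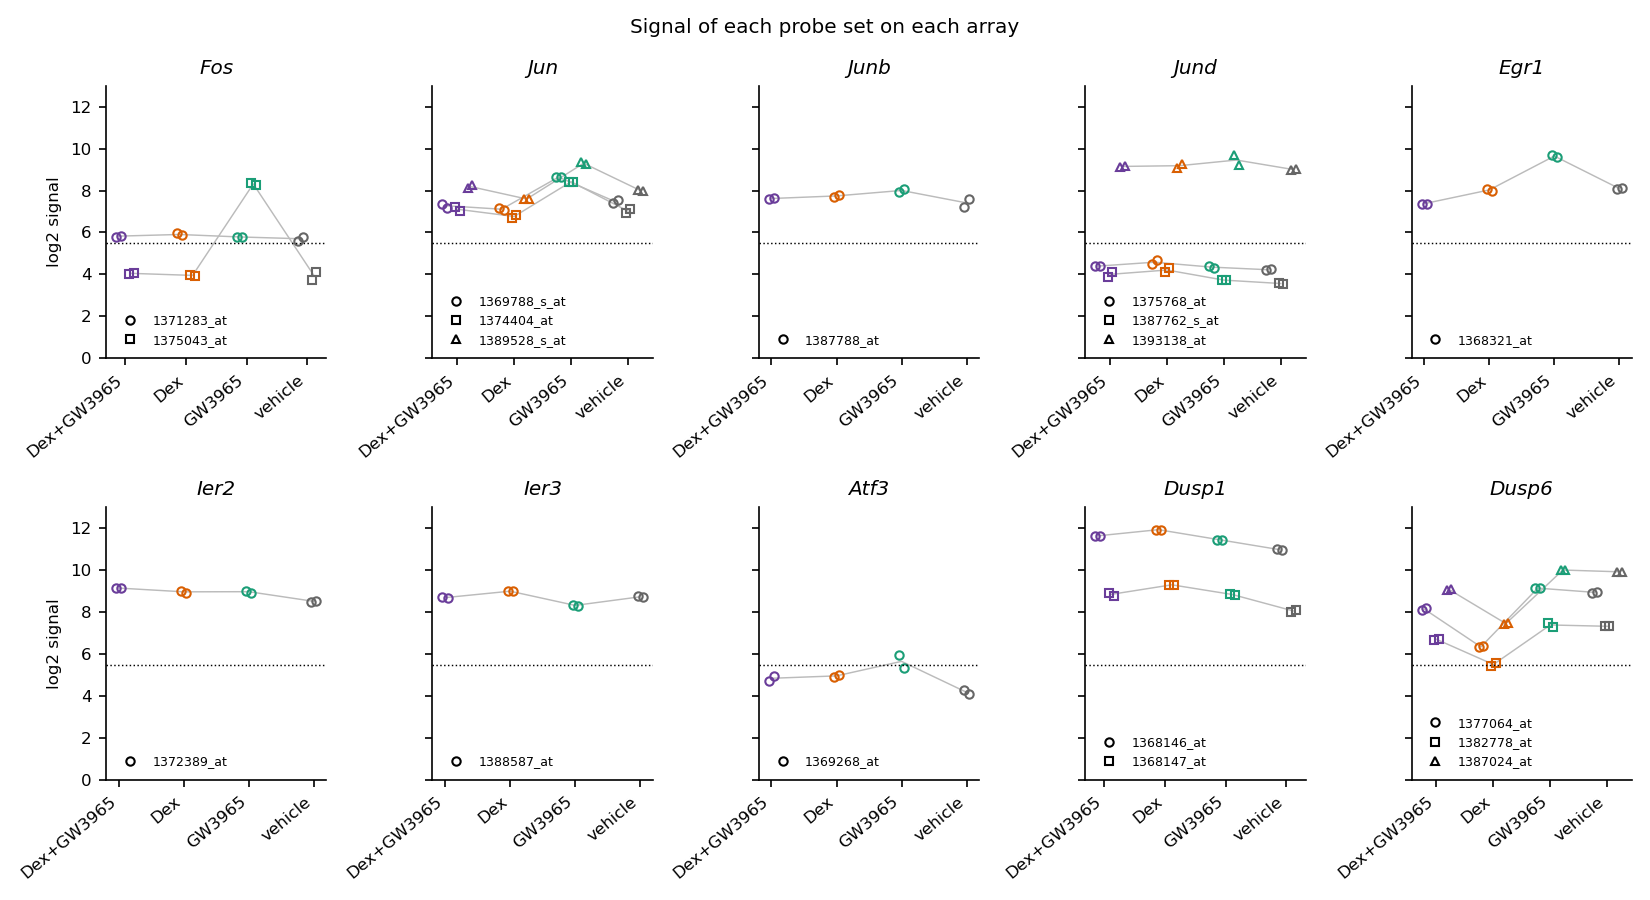
Log2 signal (vertical axis) of each probe set on each of the 8 arrays, in 1 panel per gene, for Dex+GW3965, Dex, GW3965 and vehicle livers. Symbols are arrays and differ by probe set, grey lines join group means, and the dotted line is the background level of 5.49. Egr1, Jun and 1 Fos probe set peak in the GW3965 livers, and Dusp6 is lowest in the Dex livers.

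Fos, the partner that forms AP-1 with Jun proteins, gave different answers on its 2 probe sets. On 1375043_at the signal was 4.01 and 4.08 in Dex+GW3965 livers, 3.96 and 3.93 in Dex livers, 8.36 and 8.28 in GW3965 livers, and 3.75 and 4.13 in vehicle livers. Only the GW3965 arrays were above background, and the other 6 arrays were all between 3.75 and 4.13. The signal in GW3965 livers was at least 2.83 higher than in vehicle livers on the log2 scale, which is at least 7.1-fold (measured difference 4.38, SE 0.14, adjusted p = 2.39e-13 from limma). In Dex+GW3965 livers it was at least 2.83 lower than in GW3965 livers (measured difference -4.28, adjusted p = 4.78e-14 from limma). This probe set passed the filter only through the GW3965 arrays, so that it had to differ, and no count that includes it bears on the genes as a group. With the background set at the 60th percentile of the arrays, 6.15, both limits were 2.17 in size.

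On the other Fos probe set, 1371283_at, the signal was 5.81 and 5.84 in Dex+GW3965 livers, 5.95 and 5.86 in Dex livers, 5.81 and 5.76 in GW3965 livers, and 5.60 and 5.80 in vehicle livers. All 8 arrays lay a little above background, with every group mean under 6.15, and the GW3965 arrays were not the highest. GW3965 livers differed from vehicle livers by 0.08 (95% confidence interval -0.15 to 0.32, adjusted p = 0.655 from limma), and no comparison of this probe set passed the test. Across the 8 arrays the 2 probe sets of Fos had a Pearson r of -0.0822, and a gene value averaged over them would have put the change with GW3965 at 2.23. Which of them follows Fos mRNA cannot be told from the deposited signals.

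Jun, the AP-1 subunit that binds DNA also as a pair of itself, behaved alike on its 3 probe sets, of which 1374404_at and 1389528_s_at go back to the same source sequence. On 1389528_s_at the signal was 8.11 and 8.29 in Dex+GW3965 livers, 7.58 and 7.62 in Dex livers, 9.36 and 9.26 in GW3965 livers, and 8.02 and 7.99 in vehicle livers. The GW3965 arrays were the highest and the Dex arrays the lowest, with no overlap. Jun was higher in GW3965 than in vehicle livers by 1.31 (SE 0.07, adjusted p = 2.53e-10 from limma), and by 1.18 and 1.40 on the other probe sets. In Dex livers it was lower than in vehicle livers by a log2 change of -0.40, -0.36 and -0.26 on 1389528_s_at, 1369788_s_at and 1374404_at (adjusted p = 1.01e-04, 0.0013 and 0.0326 from limma). The call on 1374404_at was lost in 5 of 11 alternatives, among them without vehicle array b (-0.15, adjusted p = 0.284) and without Dex array a (-0.17, adjusted p = 0.249).

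In Dex+GW3965 livers Jun was lower than in GW3965 livers on all 3 probe sets, with log2 changes of -1.37, -1.31 and -1.11 on 1369788_s_at, 1374404_at and 1389528_s_at. Against vehicle livers the 3 probe sets did not go one way, with 0.20 on 1389528_s_at (adjusted p = 0.0293 from limma), 0.09 on 1374404_at and -0.18 on 1369788_s_at (adjusted p = 0.5 and 0.0795). The call on 1389528_s_at was lost in 6 of 11 alternatives, with 0.11 (adjusted p = 0.333 from limma) without Dex+GW3965 array b. The arrays of 1369788_s_at read 7.38 and 7.19 in Dex+GW3965 livers, 7.15 and 7.07 in Dex livers, 8.65 and 8.65 in GW3965 livers, and 7.41 and 7.53 in vehicle livers. Those of 1374404_at read 7.20 and 7.02 in Dex+GW3965 livers, 6.68 and 6.85 in Dex livers, 8.42 and 8.43 in GW3965 livers, and 6.91 and 7.13 in vehicle livers. The GW3965 arrays stood apart on both, whereas the Dex+GW3965 and vehicle arrays overlapped on the last.

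Junb, an AP-1 subunit with weaker transactivation than Jun, moved less. Its signal was 7.62 and 7.63 in Dex+GW3965 livers, 7.72 and 7.78 in Dex livers, 7.94 and 8.07 in GW3965 livers, and 7.24 and 7.58 in vehicle livers. The vehicle arrays were the lowest and lay farther apart than the arrays of any other group. Junb was higher in GW3965 than in vehicle livers by 0.60 (SE 0.09, adjusted p = 1.49e-04 from limma) and in Dex than in vehicle livers by 0.33 (adjusted p = 0.00692 from limma). The rise in Dex livers was 0.16 without vehicle array a and 0.30 without Dex array b, with an adjusted p of 0.15 and 0.0575 from limma. Dex+GW3965 livers were lower than GW3965 livers by a log2 change of -0.38 (adjusted p = 0.00307 from limma, and 0.0586 without GW3965 array b) and stood 0.21 from vehicle livers, which did not pass (adjusted p = 0.0856).

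Jund, the AP-1 subunit present in resting cells, had only 1 probe set above background. On 1393138_at the signal was 9.15 and 9.16 in Dex+GW3965 livers, 9.10 and 9.29 in Dex livers, 9.70 and 9.23 in GW3965 livers, and 8.98 and 9.04 in vehicle livers. GW3965 array a was the highest of all, and GW3965 array b lay among the Dex arrays. The difference between GW3965 and vehicle livers was 0.45 (SE 0.10, adjusted p = 0.00344 from limma) and 0.22 without GW3965 array a. This call was lost in 3 of 11 alternatives. On the 2 untested probe sets, 1375768_at and 1387762_s_at, all arrays lay between 3.53 and 4.68, under background.

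Egr1, a zinc finger transcription factor induced through serum response factor, was above background in every group. Its signal was 7.38 and 7.38 in Dex+GW3965 livers, 8.09 and 7.98 in Dex livers, 9.69 and 9.61 in GW3965 livers, and 8.06 and 8.14 in vehicle livers. The GW3965 arrays were the highest and the Dex+GW3965 arrays the lowest, while the Dex and vehicle arrays overlapped. Egr1 was higher in GW3965 than in vehicle livers by 1.56 (2.94-fold, SE 0.06, adjusted p = 8.71e-12 from limma). It was lower in Dex+GW3965 livers than in vehicle livers (-0.72, adjusted p = 4.79e-08 from limma), Dex livers (-0.66, adjusted p = 4.6e-07) and GW3965 livers (-2.28, adjusted p = 6.61e-15). Dex livers differed from vehicle livers by -0.06 (95% confidence interval -0.20 to 0.07, adjusted p = 0.457 from limma).

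Red cell RNA moved with Egr1. Of 3 erythrocyte markers 2 were measured, beta globin Hbb and the heme synthesis enzyme Alas2, neither of them under background, and both were higher in GW3965 than in vehicle livers (0.61 and 0.94) and lower in Dex+GW3965 than in vehicle livers (-0.42 and -0.75). Their summed linear signal was 8681 to 8856 in Dex+GW3965 livers, 12070 to 12320 in Dex livers, 17620 to 18620 in GW3965 livers and 11390 to 12170 in vehicle livers. The 2 genes whose signal over the 8 arrays was most like that of Egr1, among 1041 that varied by at least 1, were the alpha globin gene Hba-a3 and Alas2 (Pearson r of 0.997 and 0.983). These points are 4 groups of 2 arrays, so r describes the group means. The part of blood cells in the results on Egr1, Fos and Jun was not tested, and in whole tissue fewer cells of a type and less RNA per cell cannot be told apart.

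**Figure D2:**
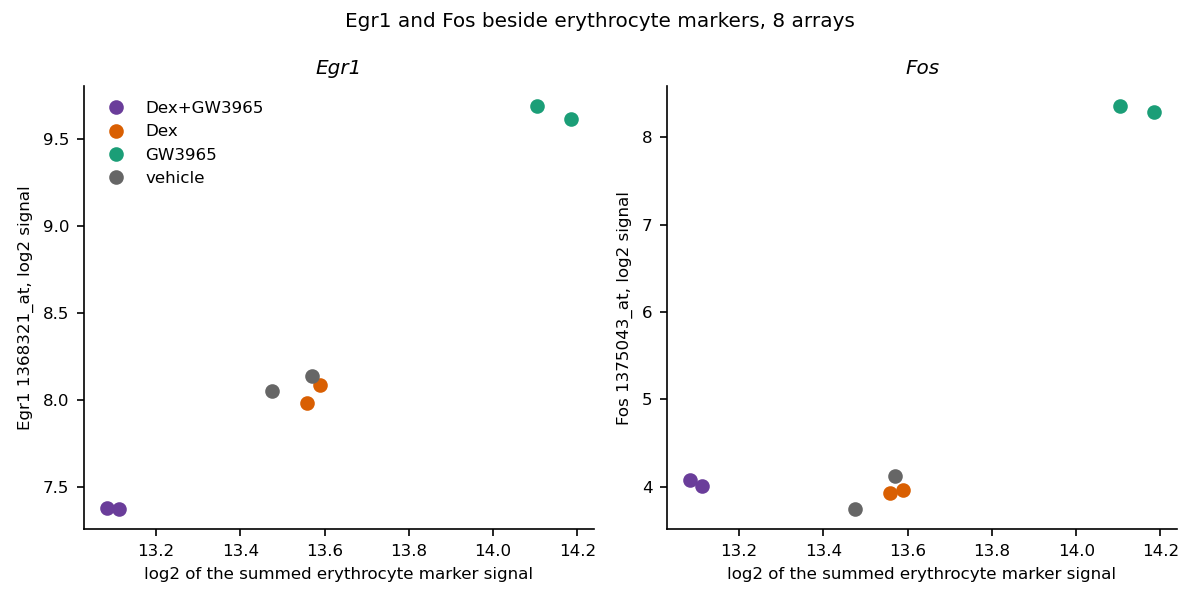
Log2 signal of Egr1 and of Fos 1375043_at (vertical axes) against the log2 of the summed signal of the erythrocyte markers Hbb and Alas2 (horizontal axes), with 1 point per array coloured by group. The GW3965 arrays are at the top right in both panels, and the Dex+GW3965 arrays have the lowest marker signal. Fos 1375043_at is under background on all other arrays and passed the filter only through the GW3965 arrays, so their place at its top was fixed. The other Fos probe set, 1371283_at, is not drawn.

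Markers of other cells also differed between the groups. The summed signal of 4 measured Kupffer cell markers of 6 (Cd68, Cd163, Clec4f and Cd5l, none under background) was 2107 to 2170 in Dex+GW3965 livers, 1956 to 1963 in Dex livers, 3028 to 3040 in GW3965 livers and 2107 to 2145 in vehicle livers. Clec4f and Cd5l rose in GW3965 over vehicle livers, by 0.51 and 0.75, while Cd68 and Cd163 did not pass the test. Of all tested probe sets 5.93% rose there. The neutrophil markers S100a8 and S100a9, 2 of 4 measured, were lower in all 3 treated groups than in vehicle livers. Of all tested probe sets 21.2%, 24.7% and 14.5% fell in Dex+GW3965, Dex and GW3965 livers. The summed signal of S100a8 and S100a9 was 82.4 to 84.1 in Dex+GW3965, 57.1 to 62.0 in Dex, 49.5 to 57.5 in GW3965 and 207.8 to 211.5 in vehicle livers. The treated sums are too low for both markers to lie above background, so the size of the falls is uncertain. The 5 T and NK cell markers were under background on every array. The summed signal of 6 stellate cell markers was 2705 to 2759 in Dex+GW3965 livers, 2793 to 2876 in Dex livers, 3917 to 4003 in GW3965 livers and 4823 to 4863 in vehicle livers. That of 4 endothelial markers was 1785 to 1797 in Dex+GW3965 livers, 2093 to 2103 in Dex livers, 2536 to 2561 in GW3965 livers and 2578 to 2669 in vehicle livers. Both sums were highest in vehicle livers. In Dex+GW3965 against Dex livers 1 stellate marker rose, 1 fell and 4 did not pass, beside 13.4% and 9.38% of all tested probe sets. Over vehicle livers 1 stellate marker rose and 4 fell in each of these groups. Of all tested probe sets 15.6% rose and 21.2% fell in Dex+GW3965 livers, and 17.2% rose and 24.7% fell in Dex livers. The stellate and endothelial sums were lowest in Dex+GW3965 livers. That of 4 cholangiocyte markers, 1 of them under background on all arrays, was highest there, at 513.5 to 529 in Dex+GW3965 livers, 320.7 to 329.6 in Dex livers, 338.5 to 351.3 in GW3965 livers and 375.9 to 394.2 in vehicle livers. That of 2 B cell markers, of which only 1 was bright enough to test, was 77.8 to 87.2 in Dex+GW3965 livers, 85.7 to 102.7 in Dex livers, 101.4 to 109.3 in GW3965 livers and 156.2 to 165 in vehicle livers. Their part in the results on Fos, Jun and Egr1 was not tested.

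Ier2 and Ier3, short-lived immediate early proteins of the nucleus and of stress and survival signaling, did not share the peak in GW3965 livers. Ier2 read 9.15 and 9.15 in Dex+GW3965 livers, 9.03 and 8.91 in Dex livers, 9.03 and 8.93 in GW3965 livers, and 8.49 and 8.54 in vehicle livers. All 6 treated arrays were above both vehicle arrays. It rose over vehicle by 0.63 in Dex+GW3965 livers, 0.45 in Dex livers and 0.46 in GW3965 livers (adjusted p = 7.37e-08, 3.76e-06 and 1.33e-05 from limma, SE 0.06). Dex+GW3965 livers were higher than Dex livers by 0.18 and than GW3965 livers by 0.17 (adjusted p = 0.0307 and 0.025 from limma). These calls were lost in 6 and 5 of 11 alternatives, among them quantile normalization (adjusted p = 0.0717 and 0.143).

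Ier3 read 8.72 and 8.66 in Dex+GW3965 livers, 8.99 and 9.02 in Dex livers, 8.33 and 8.32 in GW3965 livers, and 8.76 and 8.71 in vehicle livers. The Dex arrays were the highest and the GW3965 arrays the lowest, and Dex+GW3965 overlapped vehicle. It was higher in Dex than in vehicle livers by 0.27 and lower in GW3965 than in vehicle livers by a log2 change of -0.41 (adjusted p = 5.76e-04 and 2.68e-05 from limma, SE 0.05). In Dex+GW3965 livers it differed from vehicle livers by -0.04 (95% confidence interval -0.15 to 0.08). Ier3 was the only probe set among the 15 tested that was called lower in GW3965 than in vehicle livers.

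Atf3, a stress-induced factor of the ATF family, was above its array median on 1 array only and was not tested. Its signal was 4.71 and 4.96 in Dex+GW3965 livers, 4.92 and 4.99 in Dex livers, 5.96 and 5.34 in GW3965 livers, and 4.27 and 4.07 in vehicle livers. Of the group means only that of the GW3965 livers, 5.65, was above background, which bounds its rise over vehicle livers at 0.15 or more on the log2 scale. That limit rests on array a, since array b lay under background. With the background at 6.15 all 4 means lay under it.

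Dusp1, the phosphatase also known as MKP-1, rose in all treated groups on both probe sets. On 1368146_at the signal was 11.66 and 11.63 in Dex+GW3965 livers, 11.94 and 11.94 in Dex livers, 11.46 and 11.46 in GW3965 livers, and 10.99 and 10.97 in vehicle livers. No 2 groups overlapped. The rise over vehicle was 0.66 in Dex+GW3965 livers, 0.96 in Dex livers and 0.48 in GW3965 livers (SE 0.03, adjusted p = 4.68e-11, 2.04e-13 and 1.7e-08 from limma). On 1368147_at it was 0.79, 1.25 and 0.78 in the same groups.

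With both compounds Dusp1 stood below its level with dexamethasone alone, by a log2 change of -0.30 on 1368146_at and -0.46 on 1368147_at (adjusted p = 5.23e-06 and 1.34e-05 from limma). Against GW3965 livers the probe sets disagreed, with 0.18 on 1368146_at (adjusted p = 3.89e-04 from limma, and 0.0604 with quantile normalization) and 0.01 on 1368147_at (95% confidence interval -0.11 to 0.13). The arrays of 1368147_at read 8.92 and 8.78 in Dex+GW3965 livers, 9.31 and 9.30 in Dex livers, 8.85 and 8.84 in GW3965 livers, and 8.03 and 8.09 in vehicle livers. There the Dex+GW3965 arrays lay on either side of the GW3965 arrays.

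Dusp6, the ERK phosphatase MKP-3, fell most with dexamethasone. On 1387024_at the signal was 9.06 and 9.11 in Dex+GW3965 livers, 7.45 and 7.46 in Dex livers, 10.03 and 9.99 in GW3965 livers, and 9.93 and 9.92 in vehicle livers. The Dex arrays were the lowest, the Dex+GW3965 arrays came next, and the GW3965 and vehicle arrays were close together. In Dex livers Dusp6 was 5.56-fold lower than in vehicle livers (log2 change -2.47, SE 0.05, adjusted p = 6.4e-17 from limma), and 6.09-fold lower on 1377064_at. On 1382778_at the log2 change was -1.83, with a Dex mean of 5.50 that lay at the background level, and at least 1.18 in size with the background at 6.15.

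The same order of groups held on the other 2 probe sets of Dusp6, apart from the GW3965 and vehicle arrays. On 1377064_at the arrays read 8.11 and 8.21 in Dex+GW3965 livers, 6.31 and 6.36 in Dex livers, 9.15 and 9.15 in GW3965 livers, and 8.93 and 8.96 in vehicle livers. On 1382778_at they read 6.68 and 6.72 in Dex+GW3965 livers, 5.41 and 5.58 in Dex livers, 7.48 and 7.29 in GW3965 livers, and 7.33 and 7.32 in vehicle livers. GW3965 livers thus stood above vehicle livers on 1377064_at and overlapped them on 1382778_at. That difference was 0.20 on 1377064_at (adjusted p = 0.0277 from limma), a call lost in 6 of 11 alternatives, among them no filter (adjusted p = 0.0538). It was 0.06 on 1382778_at and 0.09 on 1387024_at (adjusted p = 0.711 and 0.251, and 0.0303 on the last with quantile normalization).

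With both compounds Dusp6 was 3.10-fold higher than in Dex livers on 1387024_at (log2 change 1.63, adjusted p = 1.18e-13 from limma) and lower than in vehicle livers (-0.84, adjusted p = 2.19e-10) and GW3965 livers (-0.93, adjusted p = 5.78e-11). The same 3 differences were 1.82, -0.79 and -0.99 on 1377064_at and 1.20, -0.62 and -0.69 on 1382778_at, all past the test. Fabp7, a fatty acid binding protein, and Pdk4, which restrains pyruvate dehydrogenase, had the signals most like that of Dusp6 over the 8 arrays (Pearson r of 0.999 each, among 1039 genes). For Jun the closest were Tifa, an adaptor of NF-kappaB signaling, and the hepatocyte factor Onecut1 (r of 0.988 and 0.983). These r values again describe 4 groups of 2 arrays.

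**Figure D3:**
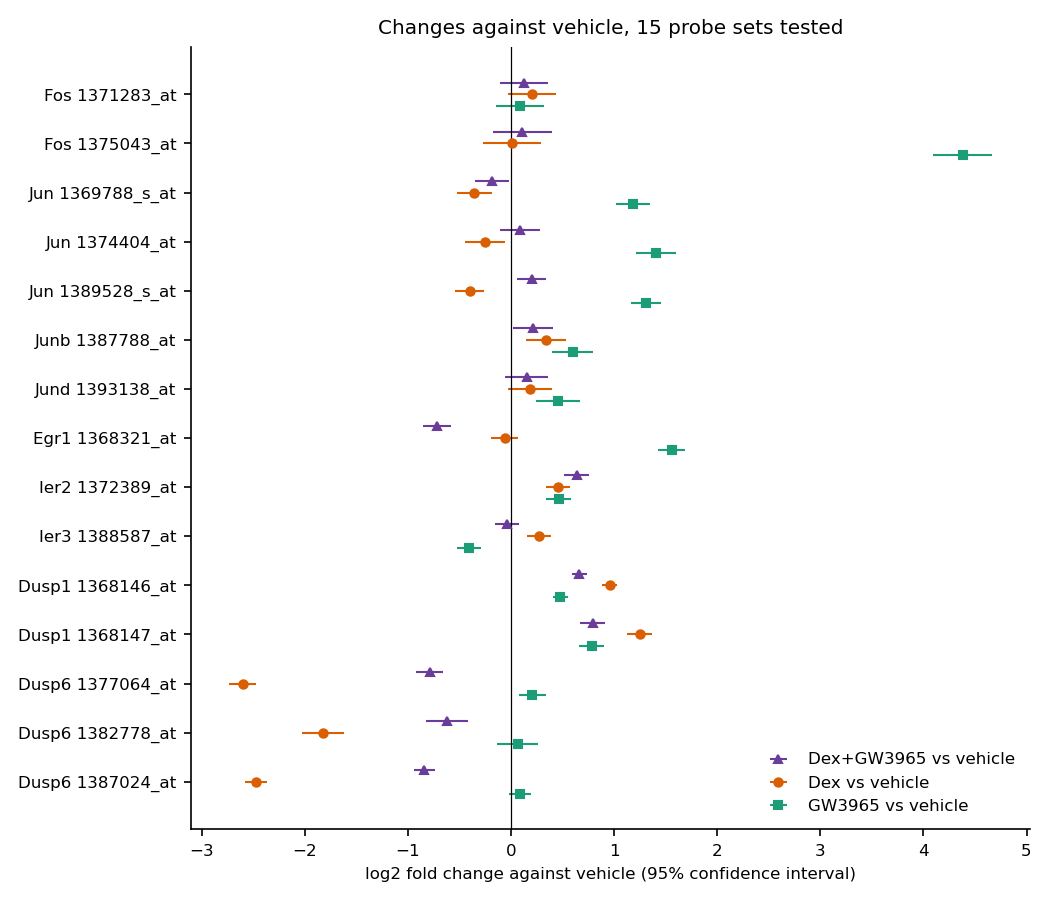
Log2 fold change against vehicle livers (horizontal axis) with its 95% confidence interval from limma for the 15 probe sets tested, in Dex+GW3965, Dex and GW3965 livers. Fos 1375043_at is drawn at its measured change of 4.38 with GW3965, of which 2.83 is the part above background, and the Dusp6 probe sets lie farthest to the left in Dex livers.

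Counted over the 15 probe sets tested, including Fos 1375043_at, 11 rose in GW3965 over vehicle livers, Ier3 fell and 3 did not pass, where 5.93% of all tested probe sets rose and 14.5% fell. Of all calls in this comparison 963 were higher and 2362 lower, and with quantile normalization 1209 were higher and 1504 lower. At least 2-fold and called were Fos 1375043_at, the 3 Jun probe sets and Egr1, where 0.437% of all tested probe sets rose so far. In Dex over vehicle livers 5 rose, 6 fell and 4 did not pass, where 17.2% of all tested probe sets rose and 24.7% fell. In Dex+GW3965 over vehicle livers 4 rose, 4 fell and 7 did not pass, where 15.6% rose and 21.2% fell. The comparisons with vehicle share the vehicle arrays, and several genes count more than once through their probe sets. The median log2 change of the 15 was 0.48 in GW3965 over vehicle livers, beside -0.03 over all tested probe sets.

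Whether dexamethasone acted alike with and without GW3965 was tested as the interaction of the compounds, the change of Dex+GW3965 over GW3965 livers minus that of Dex over vehicle livers. It passed for 13 of the 15 probe sets, where 22.8% of all tested probe sets passed, with 3 above 0, all of Dusp6, and 10 below 0, beside 15.8% and 6.93% of all. The 13 and the 10 include Fos 1375043_at, which entered the test only through the GW3965 arrays and had to differ. Of all probe sets that passed, 2571 were above 0 and 1127 below, and with quantile normalization 1836 and 1593. The values were -2.21 for Egr1 (SE 0.09, adjusted p = 1.04e-11 from limma), -1.01, -1.06 and -0.71 for the Jun probe sets in the order 1369788_s_at, 1374404_at and 1389528_s_at, and -0.72 for Junb. For Dusp1 they were -0.77 and -1.24 on 1368146_at and 1368147_at, and for Dusp6 1.55, 1.61 and 1.14 on 1387024_at, 1377064_at and 1382778_at. Fos 1371283_at (-0.16) and Ier3 (0.10) did not pass.

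Direct comparisons, which share arrays with those above, were counted likewise. In Dex+GW3965 over GW3965 livers 3 probe sets rose (Ier2, Ier3 and Dusp1 1368146_at), 10 fell and 2 did not pass. Fos 1375043_at, which had to differ, is among the 10. Of all tested probe sets 19% rose and 16.8% fell. Those shares stand for 3096 higher and 2729 lower calls, which were 2827 and 3098 with quantile normalization. In Dex+GW3965 over Dex livers 6 rose (Jun on 2 probe sets, Ier2 and Dusp6 on 3), 4 fell (Egr1, Ier3 and both of Dusp1) and 5 did not pass, where 13.4% of all rose and 9.38% fell.

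**Figure D4:**
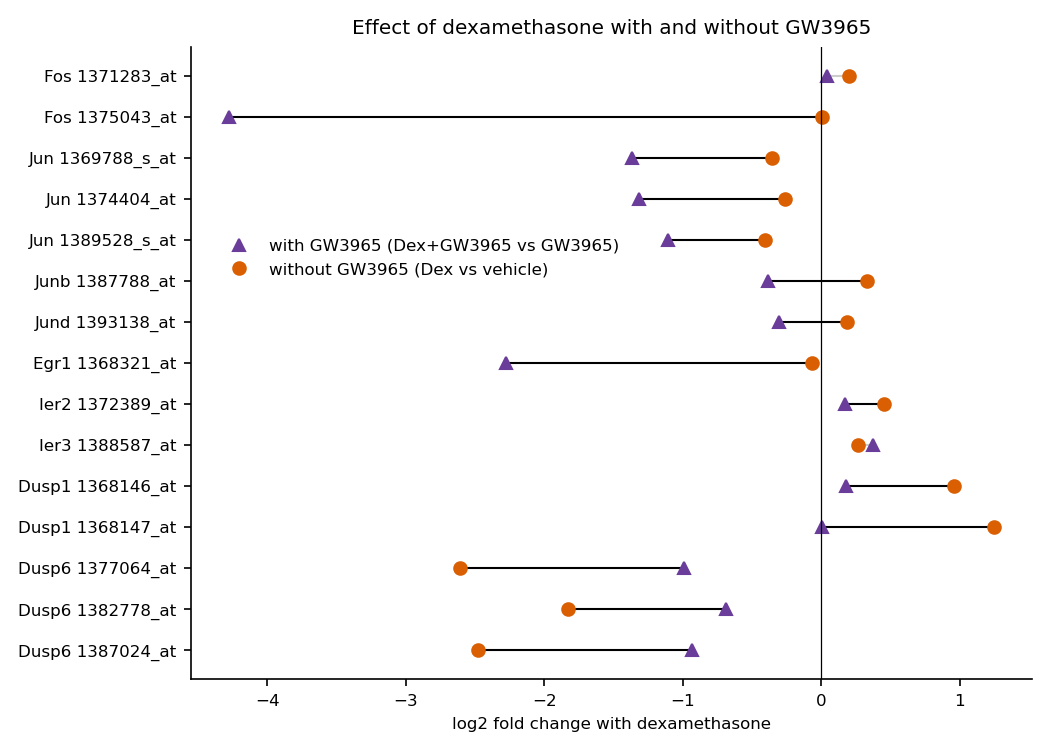
Log2 fold change with dexamethasone (horizontal axis) in the presence of GW3965 (triangles, Dex+GW3965 against GW3965 livers) and in its absence (circles, Dex against vehicle livers) for the 15 probe sets tested. Black lines join pairs whose interaction passed an adjusted p of 0.05. The triangles lie left of the circles for Fos 1375043_at, Jun and Egr1, and right of them for Dusp6.

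Of 36 other immediate early genes 24 were tested, each on its brightest probe set. In GW3965 over vehicle livers 10 rose, 4 fell and 10 did not pass, beside 5.93% and 14.5% of all tested probe sets that rose and fell. Between Dex+GW3965 and GW3965 livers 2 rose, 11 fell and 11 did not pass, beside 19% and 16.8% of all. Fosb, the nearest relative of Fos, stood at 5.94 in GW3965 livers and at 3.89, 4.06 and 3.96 in Dex+GW3965, Dex and vehicle livers, all 3 under background. Its rise in GW3965 over vehicle livers was at least 0.45 (measured 1.98, adjusted p = 1.11e-08 from limma), and Fosb and Klf4, a Krüppel-like factor, had only the GW3965 mean above background. As with Fos 1375043_at, they entered the test only through the GW3965 arrays and had to differ, and they are among the 10 that rose and the 11 that fell. Klf10, a TGF-beta induced repressor, and Rhob, a small GTPase, rose in the same comparison by 0.91 and 0.72, and Gadd45a, a growth arrest gene, fell (-0.79).

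In Dex over vehicle livers 9 of the 24 rose, 5 fell and 10 did not pass, beside 17.2% and 24.7% of all tested probe sets that rose and fell. The largest changes were those of Myc (-1.99), Ier5 (-1.92), the matrix-associated gene Ctgf (1.76) and the kinase Plk2 (-1.26). In Dex+GW3965 over vehicle livers 5 rose, 6 fell and 13 did not pass, beside 15.6% and 21.2% of all. Plk2 stood at -0.87, Myc at -0.81, the mRNA decay factor Zfp36 at 0.59 and Klf10 at 0.53. Like Dusp6, Myc and Ier5 were higher in Dex+GW3965 than in Dex livers, by 1.18 and 1.45 (adjusted p = 2.98e-08 and 1.35e-09 from limma). The median log2 change of the 24 was 0.16 in GW3965, 0.05 in Dex and -0.05 in Dex+GW3965 over vehicle livers.

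**Figure D5:**
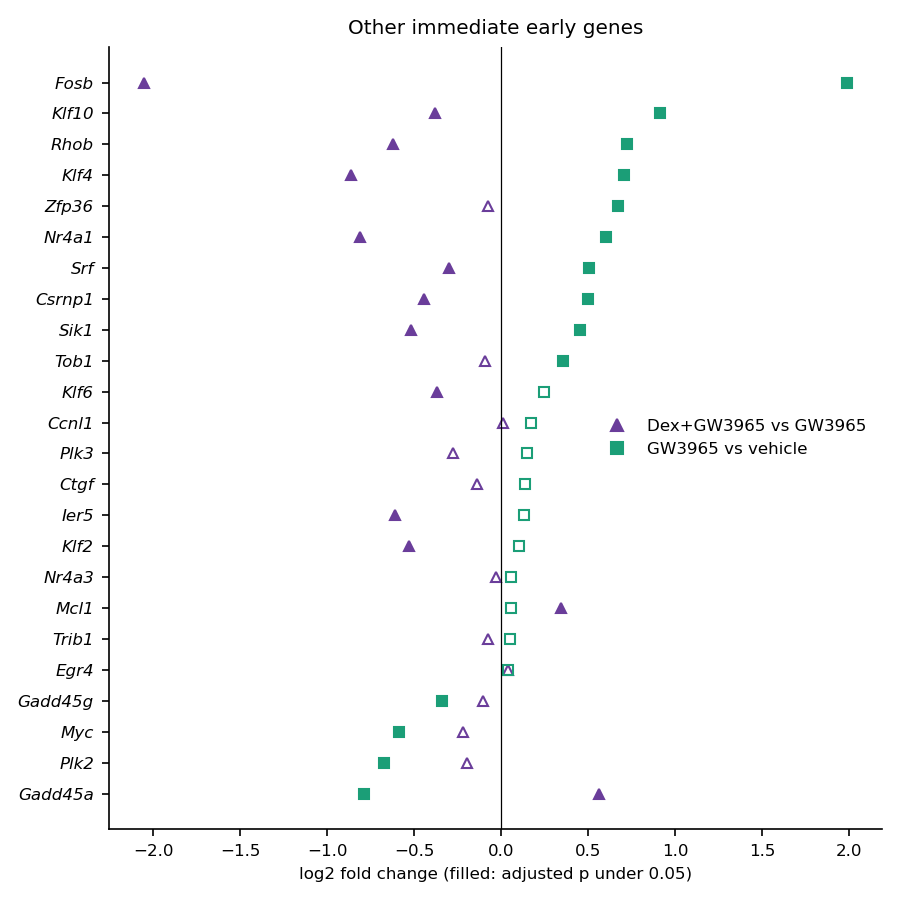
Log2 fold changes (horizontal axis) of 24 other immediate early genes in Dex+GW3965 against GW3965 livers (triangles) and in GW3965 against vehicle livers (squares), with filled symbols for an adjusted p under 0.05. Both comparisons use the GW3965 arrays. Fosb has the widest pair, and the means of Fosb and Klf4 outside the GW3965 livers are under background.

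Among 9 other dual specificity phosphatases 4 were tested. In GW3965 over vehicle livers Dusp5, an ERK phosphatase of the nucleus, rose (0.68) and Dusp3 fell (-0.77), and 2 did not pass. In Dex over vehicle livers Dusp5 (-0.45), Dusp7 (-0.37) and Dusp3 (-0.18) fell and Dusp4 (0.27) did not pass. In Dex+GW3965 over vehicle livers none of the 4 passed limma, with adjusted p between 0.121 for Dusp3 and 0.832 for Dusp5. Of all tested probe sets 5.93%, 17.2% and 15.6% rose and 14.5%, 24.7% and 21.2% fell in GW3965, Dex and Dex+GW3965 over vehicle livers.

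Of 14 genes known as output or feedback of ERK 7 were tested, and 2 rose, 2 fell and 3 did not pass in Dex over vehicle livers. The shares of all tested probe sets that rose and fell there were 17.2% and 24.7%. Ccnd1, the cyclin that carries growth signals into the cell cycle, fell (-2.44) and so did the ERK inhibitor Spry1 (-0.82), while Errfi1, an inhibitor of EGFR, rose (1.04) and so did the ephrin receptor Epha2 (0.74). Ccnd1 and Errfi1 changed the same way in GW3965 livers (-0.44 and 0.76) and in Dex+GW3965 livers (-1.13 and 0.82) against vehicle, and no other gene of the 7 passed there. The shares of all that rose and fell were 5.93% and 14.5% in GW3965 livers and 15.6% and 21.2% in Dex+GW3965 livers.

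Of 32 genes of the MAP kinase cascades and their upstream and downstream partners 20 were tested. In Dex over vehicle livers 6 rose, 7 fell and 7 did not pass, with the receptor Egfr at -1.05 and the JNK gene Mapk9 at -0.85. The kinase gene Map3k1 stood at -0.64 and Creb1, the gene of CREB, at -0.62. In GW3965 over vehicle livers none rose, 18 did not pass, and Egfr (-0.41) and the serum response factor partner Elk4 (-0.33) fell. In Dex+GW3965 over vehicle livers 4 rose, 7 fell and 9 did not pass. Egfr stood at -2.39, Mapk9 at -0.55, Creb1 at -0.50 and the kinase gene Map2k1 at 0.47. Of all tested probe sets 17.2%, 5.93% and 15.6% rose and 24.7%, 14.5% and 21.2% fell in Dex, GW3965 and Dex+GW3965 over vehicle livers.

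Among 8 heat shock genes, which respond to stress and to tissue handling, 6 were tested. Over vehicle 4 rose, Hsph1 fell and 1 did not pass in Dex+GW3965 livers and likewise in Dex livers, and 4 rose and 2 did not pass in GW3965 livers, beside 15.6%, 17.2% and 5.93% of all tested probe sets that rose in these groups. Hsph1, an HSP110 chaperone, had the largest change in Dex+GW3965 livers (-0.90, adjusted p = 4.1e-09 from limma). Hspa1a, the inducible HSP70, rose by 0.72 in Dex+GW3965 livers, 0.91 in Dex livers and 1.13 in GW3965 livers. The summed signal of the 6 genes was 11780 to 11920 in Dex+GW3965 livers, 13010 to 13480 in Dex livers, 11590 to 11740 in GW3965 livers and 10360 to 10680 in vehicle livers. This sum is made up mostly of Hspe1 and Hspd1, whereas Hspa1a had its highest mean, 6.74, in GW3965 livers, against 5.61 in vehicle livers. The part of stress or handling in the results was not tested.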

How the data were processed

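The deposited values are log2 signals of 31099 probe sets on 8 Affymetrix rat arrays, made from 5 ug of total liver RNA per sample. The authors' methods state that probes were first assigned anew to UniGene clusters, and that only perfect-match intensities, less a MAS background, were used. MAS5 is named, with no version, in the submitters' processing notes. The genome build and a step between arrays are not given in the sources used here. Medians of the arrays lay between 5.48 and 5.52, so the values were not normalized again. The file holds no counts and no detection calls, and the number of arrays limits the precision.

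Control probe sets (57) were removed, and 16253 of 31042 were kept by the filter given above. The annotation gives 20826 probe sets 1 symbol, 436 several and 9780 none. R 4.3.3 and limma 3.58.1 were used to fit the 4 group means to the 8 arrays, with trended eBayes moderation (4 residual and 12.7 prior degrees of freedom), and the code was tested on simulated data. Each treated group was compared with vehicle and the combined group with either single treatment, which with the interaction makes 6 comparisons. The methods name a one-sample test of log ratios, which was run as an alternative beside other normalization, filters, priors, samples in the fit, a letter block, another background level and each array left out.

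The genes and lists (other immediate early genes, other dual specificity phosphatases, ERK feedback and output, MAP kinase cascades, heat shock, and markers of 9 cell types) were chosen with earlier results of these data known. Every probe set of the 10 genes is given. Of each list, up to 4 genes past the test with the largest change against vehicle were named, and likeness was read as Pearson r among tested probe sets with 1 symbol and a range of at least 1. Genes outside this rule (Dusp4, and Myc, Ier5, Fosb and Klf4 in other comparisons) were chosen after their values were seen. Letters a and b were not taken to pair arrays across groups.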

Additional observations from a re-analysis of the deposited data

Results flagged for a closer look

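The effect of dexamethasone differed between livers with and without GW3965 (interaction past an adjusted p of 0.05 from limma) for 13 probe sets. Of all tested probe sets 22.8% passed, with 15.8% above 0 and 6.93% below. Fos 1375043_at, counted among the 13, entered the test only through the GW3965 arrays and had to differ. No cause was tested. Below 0 were Fos 1375043_at (-4.28, with 3 of the 4 group means under background), Egr1 (-2.21), Dusp1 1368147_at (-1.24) and 1368146_at (-0.77), Jun 1374404_at (-1.06), 1369788_s_at (-1.01) and 1389528_s_at (-0.71), Junb (-0.72), Jund 1393138_at (-0.49) and Ier2 (-0.28). Above 0 were Dusp6 1377064_at (1.61), 1387024_at (1.55) and 1382778_at (1.14). The call for Jund was lost in 5 of 14 alternatives (adjusted p up to 0.191 from limma), among them without vehicle array a, Dex array b or GW3965 array a. That for Ier2 was lost in 3 of 14, among them without Dex array a or GW3965 array a. Over the 14 alternatives the values were -0.72 to -0.26 for Jund and -0.40 to -0.22 for Ier2. With 2 arrays in each group, no test for a single outlying array was run.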

How the results depend on the processing

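Over all 16253 probe sets, leaving out 1 array gave 5422 to 6003 calls for Dex over vehicle (6806 with all arrays), 1791 to 2661 for GW3965 over vehicle (3325), 4768 to 5457 for Dex+GW3965 over vehicle (5980), 2343 to 2907 for Dex+GW3965 over Dex (3698), 4232 to 4942 for Dex+GW3965 over GW3965 (5825) and 2571 to 3650 for the interaction (3698). GW3965 over vehicle fell to 2110 without GW3965 array a and 1791 without array b, and Dex+GW3965 over Dex to 2376 without Dex array b and 2343 without Dex+GW3965 array b. The methods' one-sample test called 4335 probe sets for Dex, 2818 for GW3965 (1117 higher and 1701 lower) and 3789 for Dex+GW3965 at its threshold, and after Benjamini-Hochberg 31 for Dex, 19 for GW3965 and 28 for Dex+GW3965. It kept 7 of 11, 9 of 12 and 6 of 8 calls among the genes described here for Dex, GW3965 and Dex+GW3965 over vehicle at its threshold, and 0 of each after Benjamini-Hochberg. With the letter as a block the 6 counts were 6618, 3099, 5800, 3522, 5654 and 3543 in the order above, and deviations of same-lettered arrays correlated at -0.232 to 0.0831.

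Among the 15 probe sets, limma's alternatives kept 9 of 11 calls for Dex, 10 of 12 for GW3965 and 7 of 8 for Dex+GW3965 over vehicle, 8 of 10 for Dex+GW3965 over Dex, 9 of 13 for Dex+GW3965 over GW3965 and 11 of 13 for the interaction. The calls lost were those of Jun 1374404_at and Junb (Dex), Jund and Dusp6 1377064_at (GW3965), Jun 1389528_s_at (Dex+GW3965), Jun 1374404_at and Ier2 (over Dex), Junb, Jund, Ier2 and Dusp1 1368146_at (over GW3965), and Jund and Ier2 (interaction). Fos 1375043_at left the filter without either GW3965 array and under a filter on mean signal. With the filter of all arrays kept, an alternative chosen after seeing the data, its rise with GW3965 was 4.35 and 4.42 without array a and b.

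Uncalled differences changed sign as follows. Quantile normalization gave -0.037 for Fos 1375043_at (Dex) and -0.054 for Dusp1 1368147_at (over GW3965). With 1 array left out, Fos 1375043_at ranged from -0.182 without vehicle array a to 0.20 without array b (Dex, and -0.0059 without Dex array a) and from -0.084 to 0.297 without the same arrays (Dex+GW3965). Fos 1371283_at ranged from -0.013 to 0.182 (GW3965) and Jun 1374404_at from -0.019 to 0.196 (Dex+GW3965, and -0.0008 without Dex+GW3965 array a), again without vehicle array a and b. Jund 1393138_at ranged from -0.132 without Dex array a to 0.061 without array b (over Dex), Dusp6 1382778_at from -0.030 without GW3965 array a to 0.156 without array b (GW3965), and Dusp1 1368147_at from -0.062 without Dex+GW3965 array a to 0.077 without array b (over GW3965). Fos read on its brightest probe set would differ by 0.040 in Dex+GW3965 against GW3965 livers, in place of the called fall.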
